A study of Homo sapiens with 6 samples.

Results

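The genes described here are 35 chaperone and heat shock genes, taken by name from the 60664 rows of the count table. They are 5 HSP70 genes, 3 HSP110 genes, 2 HSP90 genes, 4 HSP90 co-chaperone genes, 5 HSP40 genes, 4 genes of the small heat shock proteins and BAG3, the HSP60 and HSP10 pair, the transcription factor genes HSF1 and HSF2, and the 8 subunit genes of the chaperonin CCT. They are defined by name and function, with no threshold on a measured value, though earlier results of these data were known when they were chosen. Although the group is named for the cytosol, the products of HSPA9, HSPD1 and HSPE1 work in mitochondria. RNA was sequenced from 5637 cells, an established human bladder cancer line grown in RPMI1640. According to the series' design text, every culture was transfected for 48 h with dCas13b-FTO, in which a Cas13b that is led to RNA by a guide but cannot cut it is joined to FTO, which removes N6-methyladenosine (m6A) from RNA. In 3 libraries the cells also received a control guide RNA and in the other 3 libraries a guide RNA against HRAS. The titles of the samples name dCas13b without FTO, no library without the fusion was included, and separate cultures for the libraries of a group are stated nowhere in the labels. The p-values therefore rest on a spread that may be technical.

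Chaperones bind unfolded proteins and help them fold or pass them on for degradation. HSP70 proteins work in cycles of ATP hydrolysis that J-domain proteins of the HSP40 class start and that HSP110 proteins help to reset, and HSP90 takes over clients such as kinases and steroid receptors with the help of co-chaperones. CCT is a ring-shaped chaperonin that folds actin and tubulin, and HSP60 with its lid HSP10 does similar work in the mitochondrial matrix. When unfolded proteins accumulate, the transcription factor HSF1 binds heat shock elements, repeats of the bases GAA and TTC in alternation, in the promoters of many of these genes.

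Promoter windows of 300 bases, 250 before to 50 after the transcription start, were available from RefSeq (GRCh38.p14) for 31 of the 35 genes. HSF1, FKBP4, CCT6A and CRYAB were not matched. The windows were searched on both strands for 2 adjacent units (GAANNTTC or TTCNNGAA, each its own reverse complement) and for 3 (GAANNTTCNNGAA or TTCNNGAANNTTC), so that every 3-unit match also holds 2-unit matches. A 3-unit match was in 0.49% of all 35116 windows and in 15.6% of the 45 windows of these genes. A 2-unit match was in 13.5% and 44.4% of them. The genes with a 3-unit match were CHORDC1, DNAJA1, DNAJB6, HSP90AA1, HSP90AB1, HSPA8 and HSPD1, which is 22.6% of the matched genes, against 0.608% of all genes with a window. Such a match is a description of the letters and not a measured binding site. Stretches from HSPA8, HSP90AA1 and CHORDC1 are shown because they hold 3 or more units in a row or close together, that of DNAJB1 because this gene had the smallest p of the group without the correction described below, and those of HSPA1A and HSPA1B because these near-identical genes share most of their letters here too. Each is written 5′ to 3′ on the gene's strand, with GAA and TTC units of the matches in capitals. Its place is given relative to the transcription start of the window that holds it, since some genes, such as HSP90AA1 and DNAJB1, have several starts. The stretches of HSPA8, HSP90AA1 and CHORDC1 overlap an annotated exon of the same gene.
HSPA8, chr11:123062170-123062199, minus strand, bases -63 to -34: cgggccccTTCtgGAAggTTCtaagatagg
HSP90AA1, chr14:102087104-102087133, minus strand, bases -89 to -60: cTTCcgGAAggTTCgggaggcTTCtgGAAa
CHORDC1, chr11:90223083-90223112, minus strand, bases -63 to -34: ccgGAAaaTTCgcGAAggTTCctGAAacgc
DNAJB1, chr19:14518434-14518477, minus strand, bases -80 to -37: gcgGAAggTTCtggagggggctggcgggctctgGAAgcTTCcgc
HSPA1A, chr6:31815426-31815455, plus strand, bases -117 to -88: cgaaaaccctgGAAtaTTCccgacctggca
HSPA1B, chr6:31827622-31827651, plus strand, bases -116 to -87: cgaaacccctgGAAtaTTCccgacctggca

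Libraries held 24968702 to 32283370 counts, and every pair of them differed by more than sampling noise (chi-square per degree of freedom 3.01 to 38.1). The 8 epithelial and urothelial markers summed to 7646 to 9946 CPM (counts scaled to a common library size with TMM factors) in the control libraries and 7900.5 to 8881 CPM in the HRAS guide libraries, and the 5 immune markers to at most 4.87 CPM. The 6 fibroblast and muscle markers summed to 145 to 215 CPM, nearly all of it COL1A1, while DES was at 0 in 4 of the 6 libraries. HRAS itself lay at 146 to 230.4 CPM in the control group and 167 to 199.9 CPM with its own guide (log2 fold change 0.01 ± 0.15, SE). These ranges overlapped, so the HRAS level gave no check of the labels. Control library 2 stood apart along GC content, as given with the classes below.

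The guide against HRAS was followed by no detectable change in RNA from any of these genes. Of the 35 genes, 34 passed the filter on low counts, and 0 passed the threshold in either direction (edgeR quasi-likelihood test, adjusted p under 0.05 over 19836 genes). Among all tested genes 0.0101% passed, which is 2 genes. Unadjusted p-values under 0.05 numbered 0 among the 34 as well, against 3.34% of all tested genes, and the smallest, of DNAJB1, was 0.0983. Log2 fold changes (HRAS guide minus control guide) were below 0 for 23 genes (18 with library totals alone, 17 with a covariate for the GC trend described below) and above 0 for 11, from -0.15 for DNAJB1 to 0.08 for HSF2. Their median was -0.03, beside -0.0014 over all tested genes, of which 50.5% were below 0. Being RNA from whole cultures, a difference would not tell fewer cells with a transcript from less RNA per cell.

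The 95% intervals show which changes these libraries could have missed. For the 31 genes at 10 CPM or more, the outermost bounds of the 95% intervals were folds of 0.701 and 1.31. A larger change of these genes lies outside the intervals. Each interval is for a single gene, is no joint bound for all 31, and rests on a spread that may be technical. For the 8 CCT genes the outermost bounds were 0.856 and 1.18, and for both HSP90 genes 0.842 and 1.09. HSPA2 and HSPB8, with 12 to 26 counts per library, had far wider intervals. That of HSPA1A (118 to 237 counts), -0.32 to 0.47 on the log2 scale, was about as wide as that of DNAJB4. CRYAB, which encodes alpha B-crystallin, had 3 to 8 counts per library and was not tested. Deposited counts were made by a method not given in the sources used here, which for genes with close copies or overlaps leaves part of the reads uncertain.

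**Figure D1:**
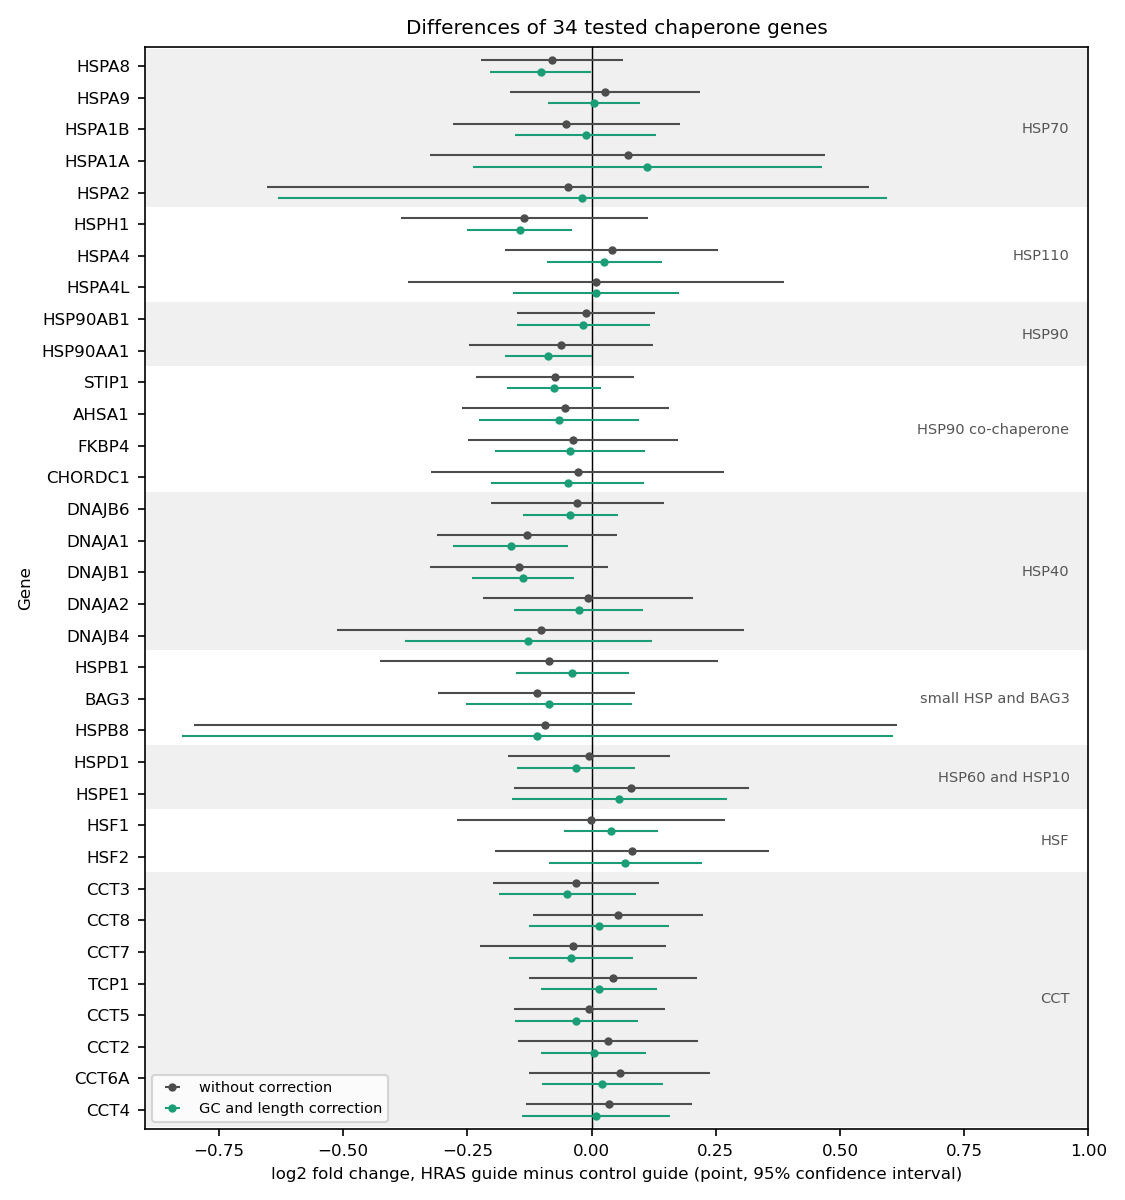
Log2 fold changes (x axis, HRAS guide minus control guide) of the 34 tested genes (y axis, grouped by class and ordered by level), as points with 95% confidence intervals, without correction in grey and after the GC and length correction in green. All grey intervals cross 0, and the green intervals are narrower for most genes, with those of HSPA8, HSPH1, DNAJA1 and DNAJB1 below 0.

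Levels were compared between genes as CPM per kilobase of the coding transcript, averaged over the 6 libraries. HSP90AB1 (396), HSPA8 (392), HSP90AA1 (351) and HSPB1 (335) were the highest. The CCT subunits, which assemble into one complex, ran from 70.1 for CCT4 to 183 for CCT3. The stress-inducible HSPA1B (26.8) and HSPA1A (2.25) were far below the constitutive HSPA8. HSF1 stood at 83.7 and HSF2 at 9.80. HSPA2, a member of the HSP70 class best known from testis, HSPB8 and CRYAB were lowest, at 0.147, 0.259 and 0.149. These ranks depend on the length used, since 20 of the 35 genes stood over 1.5 times lower per kilobase of merged exons. On that scale HSP90AB1 (355) was still the highest, HSP90AA1 (235) was above HSPA8 (199) and HSPB1 (187), HSF1 stood at 33.8, and the CCT subunits ran from 44.1 for CCT2 to 107 for CCT8. The level of DNAJB6 moved most, from 179 on the coding transcript to 12.0 on merged exons.

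**Figure D2:**
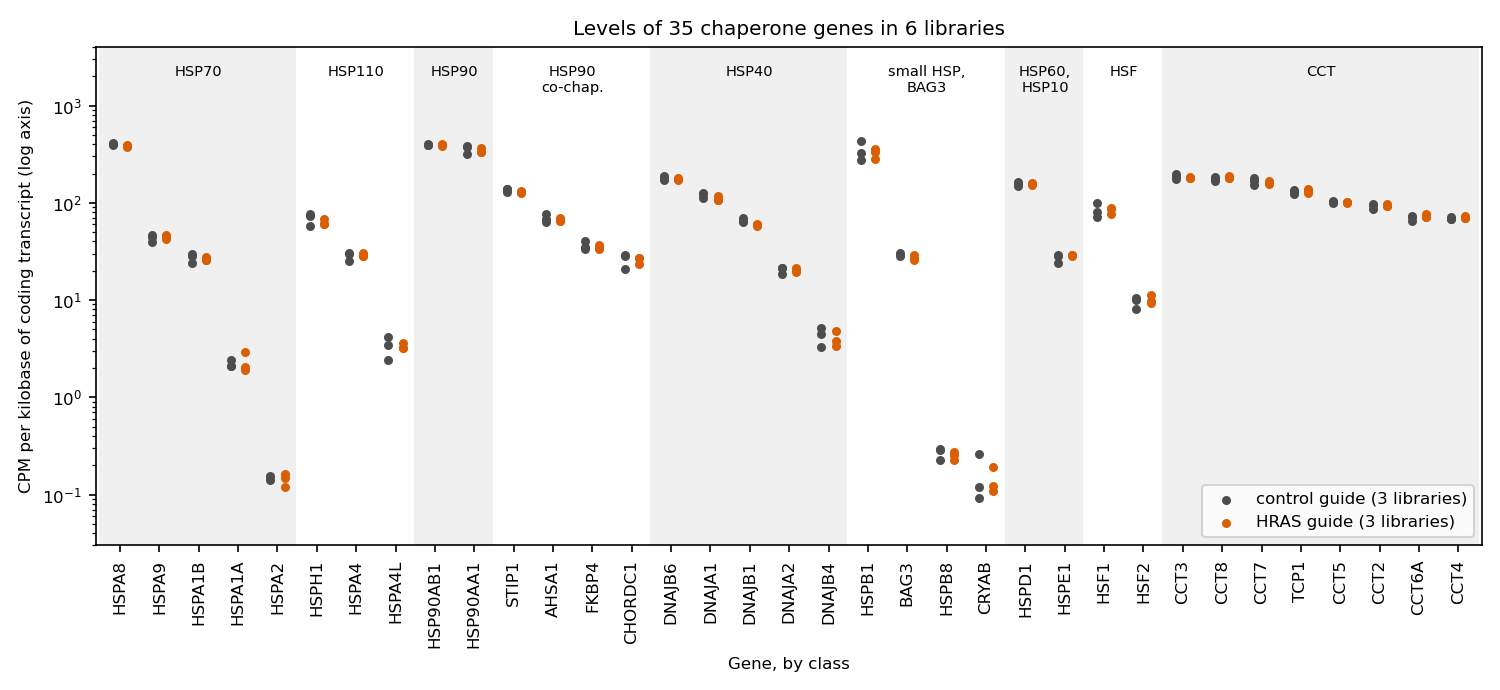
Level of each of the 35 genes (x axis, by class) in CPM per kilobase of coding transcript on a log axis (y axis), with 1 point per library, grey for the control guide and orange for the HRAS guide. Levels reach from about those of HSP90AB1 (396) down to HSPA2 (0.147), and the points of the groups lie over the same range for nearly every gene.

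In the HSP70 class, 3 genes had log2 fold changes below 0 and 2 above, with a median of -0.05. HSPA8 (ENSG00000109971, chromosome 11, 123057489 to 123063230, minus strand, GRCh38), the constitutive HSP70 of the cytosol, stood at 988, 975 and 1015 CPM in control libraries 1 to 3 and 936, 966 and 916 CPM in HRAS guide libraries 1 to 3. Each HRAS guide library was below each control library, by a small margin. The means were 993 ± 20.1 and 939 ± 25.2 CPM (SD, n = 3 each), and the log2 fold change was -0.08 ± 0.06 (SE; 95% interval -0.22 to 0.06; edgeR adjusted p 1.00). HSPA8 also hosts snoRNAs in its introns, and 17 annotated pseudogenes of it together took at most 0.181% of its count.

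HSPA1A and HSPA1B, the inducible pair, lie about side by side on chromosome 6 (31815464 to 31817946 and 31827735 to 31830255, plus strand). Their coding sequences of 1923 bases differ at 4 positions (99.792% identity, with an identical run of 1709 bases), so how reads were shared between them is uncertain. Control and HRAS guide means were 68.9 ± 7.44 and 66.5 ± 2.94 CPM (SD, n = 3 each) for HSPA1B. They were 5.47 ± 0.475 and 5.72 ± 1.37 CPM (SD, n = 3 each) for HSPA1A. Exons of HSPA1B also overlap another annotated transcript on the same strand over 36.5% of their length. With both counts summed before the fit, the log2 fold change was -0.04 ± 0.10 (SE; 95% interval -0.27 to 0.19). HSPA9, the mitochondrial HSP70, had a log2 fold change of 0.03 ± 0.09 and HSPA2 one of -0.05 ± 0.27.

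The HSP110 genes, whose products exchange the nucleotide of HSP70, had the class mean that varied most between libraries. HSPH1 (ENSG00000120694, chromosome 13, 31134974 to 31162388, minus strand) stood at 274, 207 and 263 CPM in control libraries 1 to 3 and 217, 243 and 217 CPM in HRAS guide libraries 1 to 3. Control library 2 was the lowest of the 6 and lay below all HRAS guide libraries, while the other 2 control libraries lay above them. The log2 fold change was -0.14 ± 0.11, with an interval of -0.38 to 0.11. HSPA4 (0.04 ± 0.10) and HSPA4L (0.01 ± 0.17) were also low in control library 2, HSPA4L at 26.1 CPM against 34.6 to 44.6 CPM in the other libraries.

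Both HSP90 genes had log2 fold changes just below 0, though HSP90AB1 lay above 0 with library totals alone in place of TMM. HSP90AB1 (ENSG00000096384, chromosome 6, 44246166 to 44253888, plus strand), the constitutive form, stood at 1049.7, 1062 and 1077 CPM in control libraries 1 to 3 and 1058, 1073 and 1034 CPM in HRAS guide libraries 1 to 3. These 6 values lay close together and overlapped between the groups (log2 fold change -0.01 ± 0.06, interval -0.15 to 0.13). HSP90AA1 (ENSG00000080824, chromosome 14, 102080738 to 102139699, minus strand), the more inducible form, stood at 1333, 1120.5 and 1322 CPM in control libraries 1 to 3 and 1173, 1276 and 1168 CPM in HRAS guide libraries 1 to 3. As for HSPH1, control library 2 was lowest, and the log2 fold change was -0.06 ± 0.08, with an interval of -0.25 to 0.12.

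All 4 HSP90 co-chaperone genes were below 0, with a median of -0.05 and none near the threshold. STIP1 (ENSG00000168439, chromosome 11, 64185272 to 64204543, plus strand), which encodes the adaptor that links HSP70 to HSP90, had the highest level and the smallest p of them. It stood at 356, 378 and 383 CPM in control libraries 1 to 3 and 363, 345 and 353 CPM in HRAS guide libraries 1 to 3, so that only control library 1 lay within the range of the HRAS guide libraries. The log2 fold change was -0.07 ± 0.07, with an interval of -0.23 to 0.09. AHSA1, an activator of the HSP90 ATPase, had -0.05 ± 0.09, FKBP4, an immunophilin of steroid receptor complexes, -0.04 ± 0.09, and CHORDC1 -0.03 ± 0.13 on the same log2 scale.

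The HSP40 genes had a class median of -0.10, with 5 of 5 below 0 and 0 past the threshold. DNAJA2 was above 0 with library totals alone, and with the GC trend as a covariate DNAJA2, DNAJB4 and DNAJB6 were above 0 and the median was 0.0015. DNAJB1 (ENSG00000132002, chromosome 19, 14514770 to 14529770, minus strand), a classical heat-inducible J-domain protein, stood at 142, 158 and 148 CPM in control libraries 1 to 3 and 139, 135 and 131 CPM in HRAS guide libraries 1 to 3. The highest HRAS guide library was below the lowest control library, and the means were 149 ± 7.84 and 135 ± 3.76 CPM (SD, n = 3 each). The log2 fold change was -0.15 ± 0.08 (SE; 95% interval -0.33 to 0.03; edgeR adjusted p 1.00). Part of the DNAJB1 exons (5.75%) overlaps TECR on the other strand. DNAJB1 and HSPA8 were the 2 genes (5.9% of 34) whose HRAS guide libraries all lay below the control libraries, against 4.0% of all tested genes, and 0 genes showed the opposite order, against 4.81%.

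DNAJB6 (ENSG00000105993, chromosome 7, 157335381 to 157417439, plus strand), a suppressor of protein aggregation, stood at 188, 172 and 183 CPM in control libraries 1 to 3 and 173, 183 and 177 CPM in HRAS guide libraries 1 to 3. Its groups overlapped and differed by -0.03 ± 0.08 on the log2 scale. DNAJA1 had means of 287 ± 18.3 and 262 ± 13.3 CPM (SD, n = 3 each), a log2 fold change of -0.13 ± 0.08. The remaining HSP40 genes were DNAJA2 (-0.01 ± 0.09) and DNAJB4 (-0.10 ± 0.18), the latter with 253 to 445 counts per library.

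The tested small heat shock protein genes and BAG3 were all below 0 (3 of 3, median -0.09), with wide intervals. HSPB1 (ENSG00000106211, chromosome 7, 76302544 to 76304295, plus strand), which encodes HSP27, a holdase that keeps unfolded proteins soluble, stood at 251, 392 and 298 CPM in control libraries 1 to 3 and 328, 256 and 303 CPM in HRAS guide libraries 1 to 3. Here control library 2 was the highest and control library 1 the lowest of the 6, the reverse of HSPH1, and the log2 fold change was -0.09 ± 0.15 (interval -0.43 to 0.25). BAG3 (ENSG00000151929, chromosome 10, 119651370 to 119677819, plus strand), which joins HSP70 to small heat shock proteins in selective autophagy, stood at 73.2, 74.6 and 78.5 CPM in control libraries 1 to 3 and 69.7, 65.8 and 74.1 CPM in HRAS guide libraries 1 to 3. Only HRAS guide library 3 lay within the control range, and the log2 fold change was -0.11 ± 0.09, with an interval of -0.31 to 0.09. HSPB8, the partner of BAG3, had -0.09 ± 0.32 at 12 to 19 counts per library.

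HSPD1 (HSP60) and HSPE1 (HSP10) lie head to head on chromosome 2 and share 281 bases of annotated exon on opposite strands. HSPD1 (ENSG00000144381, chromosome 2, 197486581 to 197516737, minus strand) stood at 382, 369.6 and 406 CPM in control libraries 1 to 3 and 375, 395 and 383 CPM in HRAS guide libraries 1 to 3, with a log2 fold change of -0.01 ± 0.07. HSPE1 (ENSG00000115541, chromosome 2, 197499994 to 197503457, plus strand) stood at 22.8, 27.2 and 27.6 CPM in control libraries 1 to 3 and 27.6, 27.5 and 26.9 CPM in HRAS guide libraries 1 to 3. Control library 1 was the lowest for HSPE1, the other 5 libraries lay within a narrow range, and the log2 fold change was 0.08 ± 0.11. The 26 annotated pseudogenes of HSPE1, 16 of them with counts, held 6.47% to 8.65% of its count, so some of its reads may have been placed elsewhere.

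The 8 CCT genes stayed close to 0, with 5 above and 3 below, a median of 0.03 and log2 fold changes from -0.04 (CCT7) to 0.06 (CCT6A). CCT3 (ENSG00000163468, chromosome 1, 156308968 to 156367873, minus strand), the highest subunit per kilobase of coding transcript (on merged exons CCT8 was higher), stood at 375, 424 and 395 CPM in control libraries 1 to 3 and 398, 383 and 387 CPM in HRAS guide libraries 1 to 3. Its groups overlapped, with a log2 fold change of -0.03 ± 0.08. CCT6A (ENSG00000146731, chromosome 7, 56051630 to 56063989, plus strand), the subunit of smallest p, stood at 201, 177 and 193 CPM in control libraries 1 to 3 and 193, 207 and 194 CPM in HRAS guide libraries 1 to 3, with a log2 fold change of 0.06 ± 0.08 and an interval of -0.13 to 0.24. The others were CCT8 (0.05 ± 0.08), TCP1 (0.04 ± 0.08), CCT4 (0.04 ± 0.08), CCT2 (0.03 ± 0.08) and CCT5 (-0.0049 ± 0.07). CCT5 varied least of the 34 genes, at 367 to 381 CPM over the 6 libraries, although an antisense gene covers 30.1% of its exons.

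The transcription factor genes did not pass the threshold either. HSF1, the main activator of the heat shock response, stood at 153, 212 and 173 CPM in control libraries 1 to 3 and 189.5, 162 and 185 CPM in HRAS guide libraries 1 to 3. Its spread was between control libraries, with library 2 highest and library 1 lowest, and the log2 fold change was -0.0014 ± 0.12, with an interval of -0.27 to 0.27. HSF2 (ENSG00000025156, chromosome 6, 122399546 to 122433119, plus strand) stood at 26.7, 20.8 and 25.3 CPM in control libraries 1 to 3 and 24.9, 28.4 and 23.7 CPM in HRAS guide libraries 1 to 3. There control library 2 was the lowest, and the log2 fold change was 0.08 ± 0.12, with an interval of -0.19 to 0.36. RNA levels do not show the activity of HSF1, which is set mainly by its trimer formation, location and modification.

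Differences between libraries of the same group followed the base composition of the genes. For each library, a gene's log2 CPM was taken minus its average over the 6 libraries and ranked against GC content. Over all 19489 annotated genes Spearman's rho was -0.46, 0.61 and -0.21 in control libraries 1 to 3. It was 0.27, -0.49 and 0.06 in HRAS guide libraries 1 to 3. Over the 34 chaperone genes, whose GC content ran from 38.7% (HSPA4L) to 64.3% (HSPB1), the values were -0.73, 0.88 and -0.31, and then 0.21, -0.79 and 0.37. These are descriptions across genes that share a library. The GC-poor HSP110 genes (38.7% to 42.0%) were on average 0.28 log2 units below their mean in control library 2 and 0.20 above it in control library 1, while the small heat shock protein genes and BAG3 (48.7% to 64.3%) were 0.19 above and 0.14 below. In the libraries of negative trend (control 1 and 3, HRAS guide 2), 20 of 34 genes were lower with the HRAS guide, with a median difference of -0.0083, and in those of positive trend (control 2, HRAS guide 1 and 3) 16 of 34, with a median difference of 0.01. Each set held a single library of one of the groups. Trends within a set also differed in strength, with rho 0.61, 0.27 and 0.06 in the positive set. Guide and trend could therefore not be told apart within the sets, and no conclusion is drawn from these medians.

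A correction for GC content and transcript length was fitted in each library over all genes. With it, the SD of a class mean over the 6 libraries went from 0.17 to 0.04 log2 units for HSP110, from 0.13 to 0.07 for the small heat shock proteins and BAG3, and from 0.10 to 0.06 for HSP40. It widened from 0.03 to 0.07 for CCT, from 0.06 to 0.10 for HSP60 and HSP10 and from 0.03 to 0.05 for the HSP90 co-chaperones, and moved by less than 0.01 for HSP70, HSP90 and the HSF genes. When the coding transcript replaced the median over transcripts in the correction, a choice made after seeing the data, the CCT value was 0.04 and that of HSP60 and HSP10 0.06. The transcripts of a gene used for the correction therefore mattered for these classes, and a correction is not better for every gene.

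**Figure D3:**
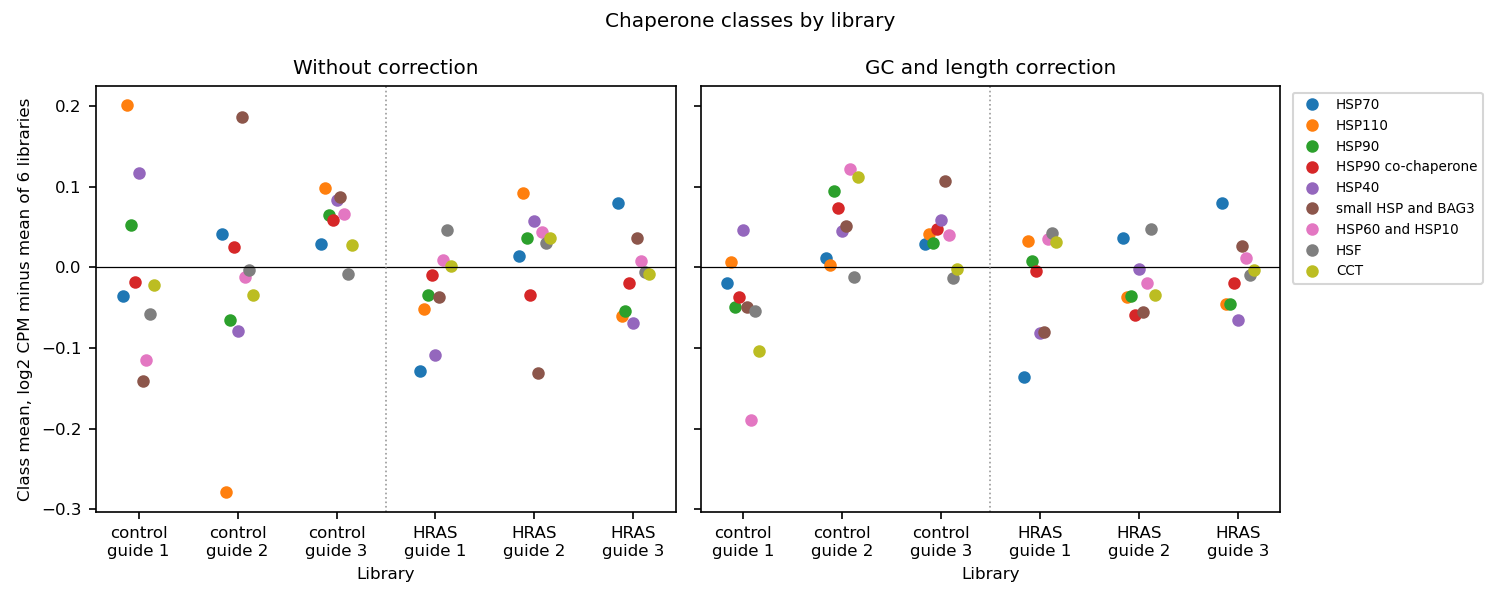
Mean log2 CPM of each class (colours) in each library (x axis), relative to the mean of the 6 libraries (y axis, log2 units), without correction on the left and after the GC and length correction on the right. HSP110 runs from -0.28 in control library 2 to 0.20 in control library 1 on the left and lies within -0.05 and 0.04 on the right, while the CCT points spread from -0.10 to 0.11 on the right.

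After the correction the class medians were -0.01 for HSP70, 0.0094 for HSP110, -0.05 for HSP90, -0.06 for the HSP90 co-chaperones, -0.13 for HSP40, -0.09 for the small heat shock proteins and BAG3, 0.01 for HSP60 and HSP10, 0.05 for the HSF genes and 0.0066 for CCT. In the HSP90, co-chaperone, HSP40 and small heat shock protein classes, named after their values were seen, all 14 tested genes were below 0 both with and without the correction. HSP90AB1 and DNAJA2 were above 0 with library totals alone, and a fit with the sign of the GC trend as a covariate put 5 of the 14 above 0 (HSP90AA1, CHORDC1, DNAJA2, DNAJB4 and DNAJB6). Over all alternatives, with a library left out among them, 5 of the 14 kept their sign (STIP1, DNAJA1, DNAJB1, HSPB8 and BAG3). The difference between classes was not tested. Of the 34 genes, 0 passed the threshold after the correction (lowest edgeR adjusted p 0.647, of DNAJA1), against 0.20% of all genes.

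Unadjusted p-values under 0.05 then belonged to 4 genes (11.8% of 34), all with lower values in the HRAS guide libraries. Of all genes, 3.0% had such a p together with lower values. This share counts that direction only, and the share in either direction after the correction is not given. The 4 genes were DNAJA1 (-0.16 ± 0.05, unadjusted edgeR p 0.0101), HSPH1 (-0.14 ± 0.05, 0.0118), DNAJB1 (-0.14 ± 0.05, 0.0125) and HSPA8 (-0.10 ± 0.05, 0.0480). These 4 were singled out after their values were seen. The count was 3 with GC content alone corrected, 2 with the GC trend as a covariate and 1 with the correction and the replicate number as a block. With the correction, it was 2 without control library 3, 1 without HRAS guide library 3 and 3 to 5 without any other library. These counts are over all 34 genes and need not be of the same 4. BAG3, HSPB1 and HSP90AA1 also had an unadjusted p under 0.05 in some alternative. The shares of all genes in these fits are not given, so the counts show only how the number moved. In corrected CPM, DNAJA1 stood at 271, 309 and 291 CPM in control libraries 1 to 3 and 261, 258 and 259 CPM in HRAS guide libraries 1 to 3, and HSPH1 at 237, 255 and 253 CPM in control libraries 1 to 3 and 232, 222 and 219 CPM in HRAS guide libraries 1 to 3. For both genes the HRAS guide libraries lay below every control library. The corrected 95% intervals were -0.28 to -0.05 for DNAJA1, -0.25 to -0.04 for HSPH1, -0.24 to -0.04 for DNAJB1 and -0.20 to -0.0011 for HSPA8.

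HRAS guide libraries below every control library were seen for 6 of the 34 genes after the correction (17.6%), against 6.28% of all genes, and the opposite order for 0, against 6.0%. With the correction on the coding transcript, STIP1 overlapped and HSF1 had the opposite order, which gives 5 lower and 1 higher. The shares of all genes under that correction are not given, so these counts cannot be set beside a background. Of the 6 genes, the 2 not given above were HSP90AA1, at 1241, 1273 and 1289.9 CPM in control libraries 1 to 3 and 1206, 1202 and 1174 CPM in HRAS guide libraries 1 to 3, and STIP1, at 366, 368 and 384 CPM in control libraries 1 to 3 and 359.6, 349.8 and 352 CPM in HRAS guide libraries 1 to 3. Their corrected log2 fold changes were -0.09 ± 0.04 and -0.08 ± 0.04, with intervals that touched or crossed 0. Without correction, HSPH1 differed by -0.14 within the libraries of negative GC trend and by 0.07 within those of positive trend, and HSP90AA1 by -0.06 and 0.06. The other 4 were lower in both sets, which adds no support, since the genes were picked for low values in these same libraries and for DNAJB1 and HSPA8 the order without correction fixes it.

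**Figure D4:**
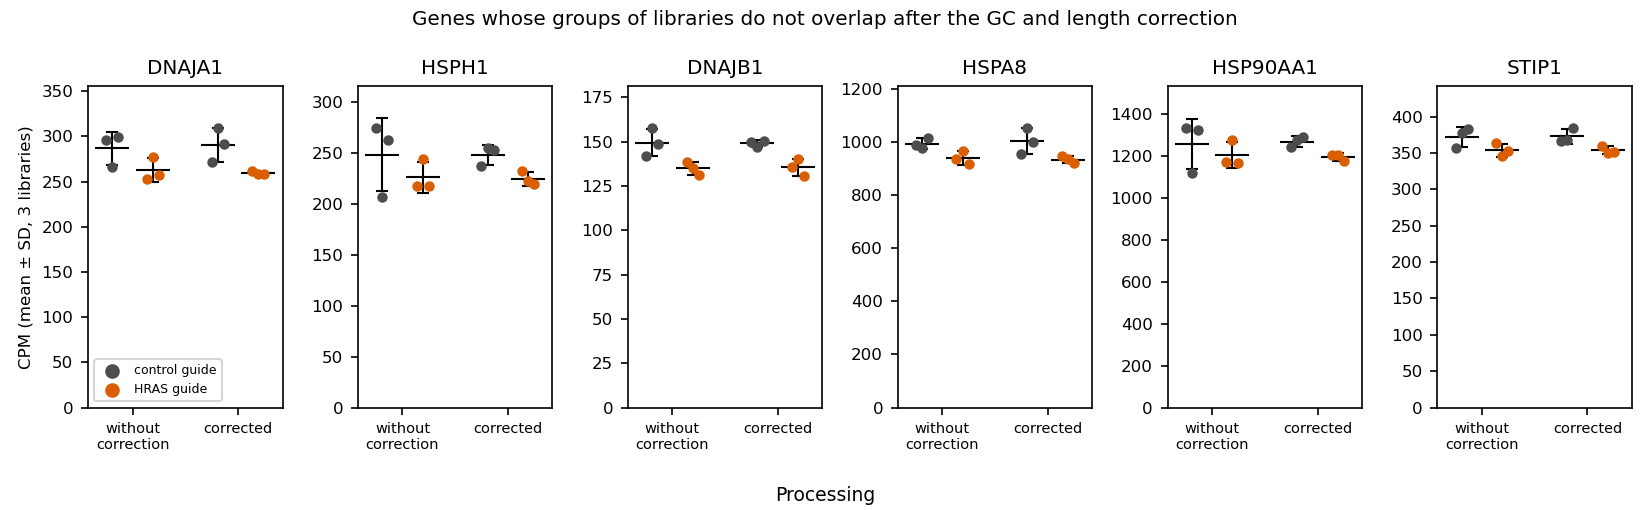
CPM (y axis, each from 0) of the 6 genes whose HRAS guide libraries (orange) all lie below the control libraries (grey) after the GC and length correction, without correction and corrected (x axis), with 1 point per library and the mean ± SD of 3 libraries. Without correction only DNAJB1 and HSPA8 are separated, and the corrected means differ by 0.08 to 0.16 log2 units.

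Grouped by promoter letters, the 7 genes with a 3-unit heat shock element match had log2 fold changes from -0.13 to -0.0051, 7 of 7 below 0, with a median of -0.03 (-0.05 after the correction, again 7 of 7). HSP90AB1 and HSPD1 were above 0 with library totals alone, and CHORDC1, HSPD1, HSP90AA1 and DNAJB6 with the GC trend as a covariate, where 3 of 7 were below 0. The 12 genes with a 2-unit match alone had 6 below 0 and a median of -0.02 (-0.0042 after the correction). Those with no match, 12 genes, had 8 below 0 and a median of -0.02 (-0.03 after the correction). No match means that these exact letters were absent from the windows searched, and does not show that a gene lacks heat shock elements. HSPE1 is in this last set, though HSPD1, which lies head to head with it, had a 3-unit match. The last set holds HSPH1, whose corrected difference was among the largest, and DNAJB1 and both HSPA1 genes are in the 2-unit set. The stretches printed above for HSPA8, HSP90AA1 and CHORDC1 belong to genes with differences of -0.08, -0.06 and -0.03, small beside their intervals.

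A wider list of 60 chaperone genes outside the group was described in the same way. Of these, 57 were tested and 0 passed the threshold (edgeR, with or without the correction), with 24 above and 33 below 0 and a median log2 fold change of -0.0074. The 6 of smallest p were HSPA12A (-0.34 ± 0.17) and HSPA12B (-0.19 ± 0.15), distant HSP70 relatives, CCT6B (0.42 ± 0.21), a CCT subunit best known from testis, HSPB6 (-0.67 ± 0.45), a small heat shock protein gene, PPID (-0.18 ± 0.13), an HSP90 co-chaperone of the cyclophilin family, and the J-domain gene DNAJC9 (-0.12 ± 0.09). The smallest unadjusted p was 0.0762, and HSPA12A, HSPA12B, CCT6B and HSPB6 lay below 10 CPM. After the correction, the unadjusted edgeR p was under 0.05 for 3 of the 57. PPID (-0.21) and HSPA12A (-0.35) were lower with the HRAS guide and BAG5 (0.12) was higher. Of all genes, 3.0% had such a p with lower values. That share counts the lower direction only and can be set beside PPID and HSPA12A, not beside BAG5. Corrected HRAS guide libraries lay below every control library for 6 of the 57, against 6.28% of all genes, and above for 2, against 6.0%. Annotated genes on the other strand overlap part of the exons of HSPB6 (38.2%), DNAJC9 (24.0%) and PPID (19.5%). HSPB2, HSPB3 and HSF5 did not pass the filter, with 0 to 13 counts per library. Prefoldin and other CCT cofactor genes had a median of 0.03 (6 of 9 above 0) and other J-domain genes -0.02 (9 of 12 below 0). Other genes of the HSP90 system had -0.0088 (8 of 11 below 0). After the correction, 5 of 9, 10 of 12 and 6 of 11 lay on these sides. Without it, other HSP70 genes had 4 of 6 above 0, and HSP70 co-chaperones and exchange factors 5 of 9 below 0. Other small heat shock protein genes had 3 of 4 below 0, mitochondrial quality control genes 3 of 4 below 0, and HSF4 and HSBP1 were above 0.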

How the data were processed

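The authors deposited raw counts (whole numbers per gene and library) in a table of 60664 rows, of which 1 held no values and was left out. Per the submitters' processing notes, HISAT2, StringTie, DESeq2 and hg38 were used, without versions or roles. The sources used here do not give the counting tool, its annotation or the strandedness. Column names give FTO and the guide, and were matched to sample titles by guide and replicate number.

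Counts were filtered with filterByExpr (19836 genes), scaled by TMM and compared on group alone with the two-sided quasi-likelihood F-test of edgeR 4.0.16 (R 4.3.3), with Benjamini-Hochberg adjustment over all tested genes at 0.05. A log2 fold change is the HRAS guide value minus the control guide value, with the SE from the F statistic and 95% intervals. GC content and transcript length came from GENCODE 29 on GRCh38 (the hg38 assembly). The GC and length correction used each gene's log2 CPM in a library (prior count 2) minus its mean over the 6 libraries. In each library these deviations were fitted to splines with 5 and 4 degrees of freedom by robust regression, over genes with a mean above 1. The fitted values entered edgeR as offsets for 19489 genes.

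Alternatives were DESeq2 (1.42.0), limma-voom (limma 3.58.1), other size factors, other filters, a replicate block, a covariate for the sign of the GC trend and each library left out. A correction on the coding transcript and the medians within GC sets were added after seeing the data. The scripts were tested on simulated data. Same-numbered libraries of the groups were not treated as pairs in the main fit.

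The genes, classes, lists and correction were chosen with earlier results of these data known. Values in every library are given for the gene of highest level per length and that of smallest p in each class, and for HSF1 and HSF2. Of other chaperone genes the 6 of smallest p are named. Levels between genes are per kilobase of the protein-coding transcript with the longest coding sequence.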

Additional observations from a re-analysis of the deposited data

How the results depend on the processing

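In 24 alternatives, 0 of the chaperone genes and 0 of the other chaperone genes passed the threshold. Of the 34 tested genes, 7 (HSPA8, HSPH1, STIP1, DNAJA1, DNAJB1, HSPB8 and BAG3) kept their sign in every alternative that fitted them. The differences within the GC sets are not among the 24. There HSPH1 changed sign, at 0.07 within the libraries of positive GC trend. The number of genes below 0 ran from 15 (without control library 2, with the correction) to 29 (without control library 1, with the correction), against 23. Over all genes, the count past the threshold was 2 in edgeR. It was 1 with DESeq2 size factors, with limma-voom, with a filter of 1 CPM in 3 libraries and with the replicate block. It was 28 with DESeq2, 57 without a filter, 39 with the GC and length correction, 5 with that correction and the replicate block, 37 with GC content alone corrected, 81 with the covariate for the sign of the GC trend and 51 with the correction on the coding transcript. With a library left out it was 1 to 129, with the correction in part of these fits, and without control library 2 it was 24, or 129 with the correction. Where a group was left with 2 libraries, edgeR pooled the spread over both groups, as it also did in the main fit. The median over the chaperone genes, -0.03, was -0.059 to 0.0091 with a library left out, -5.8e-04 with the covariate (17 of 34 below 0), -0.0068 with library totals alone and 0.013 within the libraries of positive GC trend. With the covariate the HSP90 co-chaperone median was -0.087 and that of HSP40 0.0015. With the correction on the coding transcript the CCT median was 0.0052. With a library left out, medians ran from -0.10 to -0.022 for the HSP90 co-chaperones, -0.16 to -0.0032 for HSP40, -0.18 to 0.075 for HSP110, -0.21 to -0.031 for the small heat shock proteins and BAG3, -0.088 to -0.016 for HSP90, -0.072 to 0.077 for HSP60 and HSP10, -0.059 to 0.050 for CCT, -0.087 to 0.058 for HSP70 and 0.022 to 0.071 for the HSF genes. The cause of these moves was not tested. Whether same-numbered libraries were paired is unknown. Their deviations, taken without the GC correction, correlated at -0.54, -0.66 and -0.14 over 14088 genes. Libraries of the same number also had GC trends of opposite sign, so these correlations cannot decide on pairing. The replicate block left 0 chaperone genes called, with a median of -0.02. The depth limits HSPA2, HSPB8 and CRYAB, with 3 to 26 counts per library.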
